A study of Mus musculus with 8 samples.

Results

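Small nucleolar RNA (snoRNA) host transcripts are long RNAs that carry snoRNAs in their introns. The 8 noncoding host genes described here are Gas5, Snhg1, Snhg3, Snhg5, Snhg6, Snhg8, Snhg12 and Epb41l4aos. They were taken by name from a table of 55414 mouse genes, by a rule that reads no measured value, although earlier results of these data were known when the list was made. The table gives FPKM (fragments per kilobase of transcript, scaled to the mapped fragments of each library) for whole mouse testis in 8 samples, 4 from mice labelled valine and 4 labelled control. The study asks what valine, a branched-chain amino acid, does to the testis. The labels give no dose, route, duration, strain or age, and no genetic change in either group. They do not say that each sample came from its own animal, so p-values reflect the variation among these 8 samples and no more, and part of it may be technical.

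A host transcript is spliced, its introns are trimmed to the snoRNAs, and the remaining exons either persist as a long noncoding RNA or are degraded. Many C/D box snoRNAs guide 2′-O-methylation of ribosomal RNA and many H/ACA box snoRNAs guide its pseudouridylation, so the hosts feed ribosome production. Many host transcripts begin, like ribosomal protein mRNAs, with a run of pyrimidines called a 5′ terminal oligopyrimidine (5′TOP) tract. Their short reading frames are translated only briefly, and several spliced hosts, Gas5 among them, are substrates of nonsense-mediated decay, which couples their level to translation.

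The promoters were searched for a pyrimidine run near each annotated start. The lines below are shown because they place that run, where there is one, beside the start site. Each gives 60 bases of the genome strand that carries the gene, from 40 bases before the annotated start to 20 bases after it, from RefSeq, build GRCm38.p6. Capitals mark TATA where it lies 40 to 20 bases before the start, and the longest run of C or T that touches the stretch from 5 bases before the start to 16 bases after it, where it has 5 bases or more.
Gas5, first start, chr1:161034561-161034620, plus strand: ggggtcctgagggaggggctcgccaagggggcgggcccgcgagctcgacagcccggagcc
Gas5, second start, chr1:161035126-161035185, plus strand: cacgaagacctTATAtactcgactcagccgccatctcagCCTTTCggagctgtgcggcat
Snhg1, chr19:8723447-8723506, plus strand: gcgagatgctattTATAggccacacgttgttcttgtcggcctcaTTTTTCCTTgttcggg
Snhg5, chr9:88522878-88522937, minus strand: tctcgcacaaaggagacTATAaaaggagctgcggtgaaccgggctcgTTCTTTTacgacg
Snhg3, chr4:132353667-132353726, minus strand: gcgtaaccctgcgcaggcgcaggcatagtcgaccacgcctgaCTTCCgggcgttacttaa
Snhg8, chr3:123508317-123508376, minus strand: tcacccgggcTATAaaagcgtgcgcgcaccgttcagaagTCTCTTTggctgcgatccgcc
Snhg12, chr4:132308638-132308697, plus strand: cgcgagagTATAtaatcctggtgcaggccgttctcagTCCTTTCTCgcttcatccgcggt
The promoter table matched 6 of the 8 hosts, with 7 starts. Snhg6 and Epb41l4aos had no entry.

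A pyrimidine run of 5 bases or more lay near 6 of the 7 host starts (85.7%), against 66.2% of 68 ribosomal protein starts and 45.2% of 32851 starts of all genes in the table. The run crossed the annotated start only at the second start of Gas5, at Snhg8 and at Snhg12. With the start base counted first, it began at base 3 in Snhg3, 5 in Snhg1 and 8 in Snhg5. A run counted here lies near a start and need not be a 5′TOP tract. TATA upstream together with such a run was found at 5 of 7 host starts (71.4%), against 8.82% of ribosomal protein starts and 2.73% of all starts. Only the first start of Gas5 held neither feature. TATA was searched on the gene's strand, and was added to the search after these sequences had been seen. CACGTG, the palindromic E-box that reads the same on both strands, was searched in the whole 300-base promoters and was in none of the 7, against 11.8% of ribosomal protein promoters and 7.15% of all promoters. These matches describe letters and not sites in use.

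Across the 8 hosts, 1 gene was higher in valine testes and none was lower. Epb41l4aos was 1.58-fold higher (95% interval 1.30 to 1.93) and its groups did not overlap. The other 7 hosts did not pass the test, with log2 changes between -0.30 for Gas5 and 0.38 for Snhg6. Changes are differences of log2(FPKM + 1), valine minus control, tested with limma on the 22077 genes whose mean over the 8 samples reached 1 FPKM, with Benjamini-Hochberg adjustment and a threshold of 0.05. This scale understates the change of genes with low values.

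The share of hosts called higher, 1 of 8 or 12.5%, stands beside 4.32% of all tested genes called higher, 4.41% called lower and 8.73% called in either direction. At an unadjusted limma p under 0.05, 2 of 8 hosts were higher and 0 lower, beside 3039 higher and 2612 lower of all 22077 tested genes. The change was positive in 6 of 8 hosts, in 11835 of all 22077 tested genes and in 2399 of the 3633 noncoding genes tested. With equal totals it was positive in 5 of 8 hosts, in 8231 of all tested genes and in 1906 of the noncoding ones. Its median over the 8 hosts was 0.16, against 0.02 over all tested genes. Among the 3633 tested genes annotated as noncoding, 3.52% were called higher, 0.853% lower, and the median change was 0.11. That split depends on the processing, since equal totals gave 56 higher and 69 lower, at a median of 0.02, and there were 47 higher and 43 lower with the length trend removed (median 0.04). A single gene out of 8 is too few to set the hosts apart from that background.

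Total FPKM was higher in every valine sample, 1027662 to 1070524, than in any control sample, 944659 to 974626. When all samples were scaled to equal totals, the median change of all genes moved by -0.10, the hosts' median became 0.06 and that of all genes -0.08. Epb41l4aos was again the 1 host called.

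The deposited values step in whole fragments, so the counts behind each value could be recovered. Among 21676 tested genes with an annotated length, 93.4% gave whole numbers in the 8 samples (within 0.03 fragments), against 0.604% when lengths were changed at random by up to 10%. Recovered fragments, in units of 1e6, numbered 8.9 to 10.2 in valine and 8.8 to 10.2 in control samples. They were 1.32 to 1.36 times the library size that the FPKM values of each sample implied. The reason for this excess was not tested, and the counting errors below take each recovered fragment as a separate one. The hosts were counted at 12 to 388 fragments per sample, so counting alone gives an SD of about 5% to 29% of the value.

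**Figure D1:**
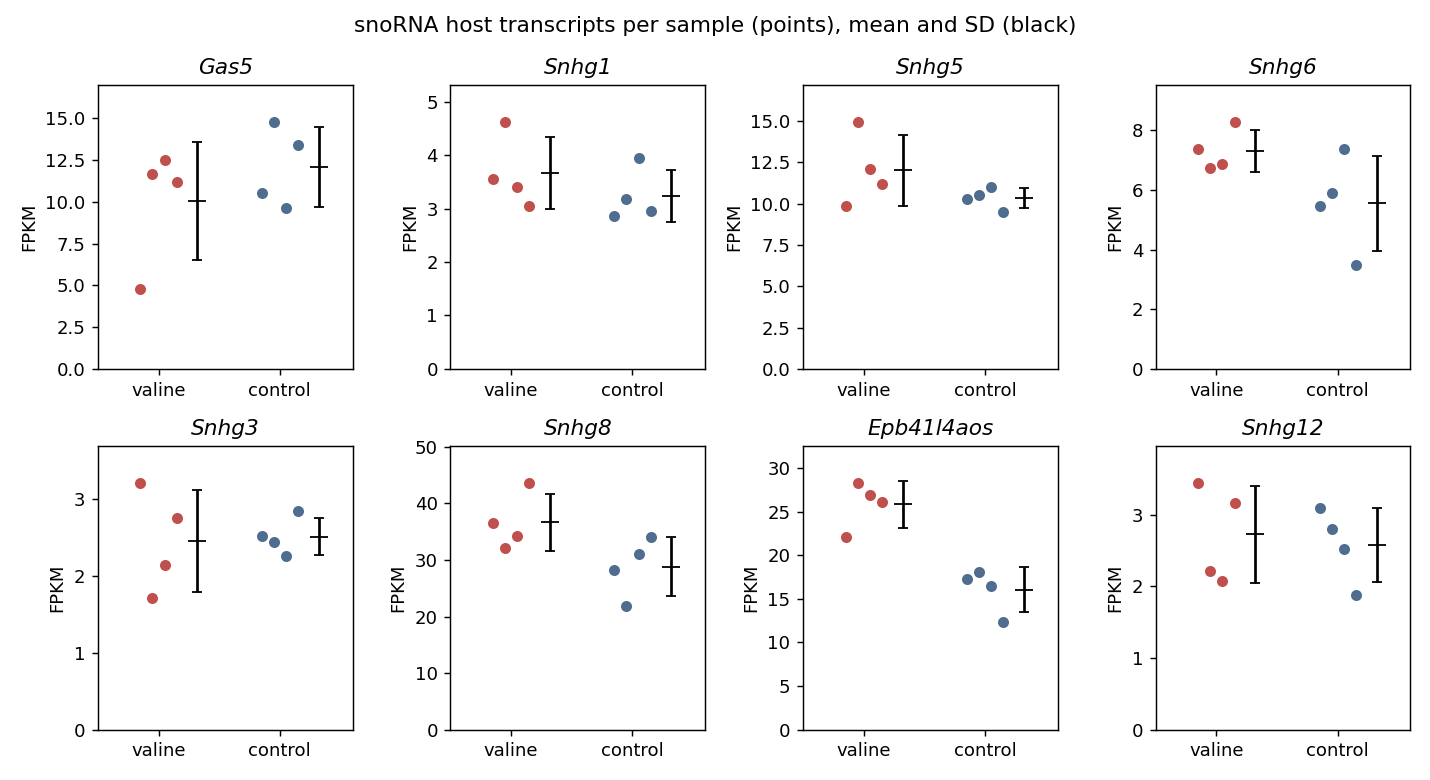
FPKM of the 8 host genes in each of 4 valine samples (left of each panel) and 4 control samples (right), with the group mean and SD in black. The Epb41l4aos panel is the one where the groups do not overlap, with 22.055 FPKM as the lowest valine value and 18.106 FPKM as the highest control value.

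FPKM divides by gene length, so levels can be ordered between genes. Over the 8 samples the order of mean levels was Snhg8 at 32.73 FPKM, Epb41l4aos at 20.96, Snhg5 at 11.18, Gas5 at 11.06, Snhg6 at 6.427, Snhg1 at 3.446, Snhg12 at 2.651 and Snhg3 at 2.477 FPKM. Snhg8 lay above 78.2% of the tested genes and Snhg3 above 21.6%. The sample ranges of each neighbouring pair in this order overlapped. Within samples the order was firmer for some pairs. Snhg8 exceeded Epb41l4aos in 8 of 8 samples, Epb41l4aos exceeded Snhg5 in 8, and Snhg6 exceeded Snhg1 in 8. Snhg5 and Gas5 could not be ordered, since Snhg5 was the higher in 4 of 8 samples. These levels depend on the length the authors divided by. The exon length in GENCODE vM21 reproduced whole fragments for 7 hosts, and it includes unspliced isoforms, as for Snhg1, whose 2969 bp form a single block from 8723475 to 8726443 of chromosome 19. For Snhg5 the values pointed to a length of 3634 bp and not the 1730 bp of that annotation, so its level would read higher over the shorter length.

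Among the hosts of C/D box snoRNAs, Gas5 varied most between valine samples and Snhg6 between control samples. Gas5, a growth-arrest transcript that is known to bind the glucocorticoid receptor, spans positions 161034422 to 161038539 of chromosome 1 (GRCm38, as all gene positions here), and 10 snoRNA genes lie inside it. It had 4.804, 11.657, 12.512 and 11.168 FPKM in valine samples, against 10.534, 14.773, 9.647 and 13.424 FPKM in control samples. Valine replicate 1 was the lowest of the 8, at less than any other sample, and the other valine values lay within the control range. Those values rest on 120, 313, 358 and 310 fragments in valine and 304, 371, 245 and 379 in control samples. The means were 10.04 ± 3.531 in valine and 12.09 ± 2.406 FPKM in control samples (SD, n = 4 each), a log2 change of -0.30 (SE 0.271, limma adjusted p = 0.533). Without valine replicate 1 the change was -0.02.

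The between-sample SD of Gas5 was 35.2% of its mean in valine and 19.9% in control samples, against 6.62% and 5.64% expected from counting. Both values were above what counting gives, and Gas5 in valine samples was the most variable of the 8 hosts.

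Snhg1, a host of U22-type and related C/D snoRNAs, had 3.549, 4.622, 3.408 and 3.057 FPKM in valine samples, against 2.853, 3.177, 3.939 and 2.961 FPKM in control samples. The groups overlapped, with the highest value in valine replicate 2 and the lowest in control replicate 1. The log2 change was 0.13 (SE 0.134, limma adjusted p = 0.578), with means of 3.659 ± 0.6745 in valine and 3.233 ± 0.4899 FPKM in control samples (SD, n = 4 each).

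Snhg5, the host of the U50 snoRNAs, had 9.859, 14.951, 12.078 and 11.182 FPKM in valine samples, against 10.29, 10.547, 11.041 and 9.529 FPKM in control samples. Of the valine samples, 3 exceeded every control sample and replicate 1 did not. The means were 12.02 ± 2.158 in valine and 10.35 ± 0.6309 FPKM in control samples (SD, n = 4 each), a log2 change of 0.18 (SE 0.118, limma adjusted p = 0.368). The spread in control samples, 6.09% of the mean, was about that expected from counting, 6.11%, while in valine samples it was 18% against 5.72%.

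Snhg6, which carries Snord87, had 7.356, 6.72, 6.88 and 8.274 FPKM in valine samples, against 5.457, 5.879, 7.364 and 3.486 FPKM in control samples. Control replicate 3 fell inside the valine range and control replicate 4 was the lowest of all. With means of 7.307 ± 0.6987 in valine and 5.546 ± 1.599 FPKM in control samples (SD, n = 4 each), the log2 change was 0.38 (SE 0.178, limma adjusted p = 0.23). It was 0.20 without control replicate 4. The SD between samples was 9.56% of the mean in valine and 28.8% in control samples, against 12.9% and 15.3% from counting. An exon of Mcmdc2, a meiotic recombination gene on the opposite strand, overlaps Snhg6 by 127 bp. No source used here states the strand setting of the counting, and reads from that stretch cannot be assigned. Mcmdc2 averaged 6.867 ± 0.7144 in valine and 6.114 ± 0.6018 FPKM in control samples (SD, n = 4 each, limma adjusted p = 0.419).

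The hosts of H/ACA box snoRNAs included both the most abundant host and the one that passed the test. Epb41l4aos, a host antisense to Epb41l4a that carries a SNORA13-type snoRNA in human, spans 33794892 to 33795986 of chromosome 18. It had 22.055, 28.331, 26.893 and 26.146 FPKM in valine samples, against 17.272, 18.106, 16.527 and 12.389 FPKM in control samples. Every valine sample was above every control sample. Lack of overlap in that direction was seen in 8.99% of all tested genes, in the opposite direction in 9.39% and in either in 18.4%. The fragments were 63, 87, 88 and 83 in valine and 57, 52, 48 and 40 in control samples.

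The means of Epb41l4aos were 25.86 ± 2.692 in valine and 16.07 ± 2.54 FPKM in control samples (SD, n = 4 each), a log2 change of 0.66 (SE 0.125, limma adjusted p = 0.0176). The between-sample SD was 10.4% in valine and 15.8% in control samples, close to the 11.3% and 14.4% that counting alone gives. The call held without each sample in turn, with log2 changes between 0.55 and 0.73. Over 21 alternative settings its limma adjusted p lay between 0.0135 and 0.0897, and it missed the threshold only relative to ribosomal protein transcripts, described below with that comparison. A voom fit on the recovered fragments also called Epb41l4aos as the 1 host of 8 (log2 change 0.69, adjusted p = 0.0311), where 3.36% of all tested genes were called higher. With the trend of change on gene length removed it was 0.53 (adjusted p = 0.0482). With 430 bp of exon, this host is the shortest of the 8.

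Snhg8, the most abundant host, spans 123507552 to 123508404 of chromosome 3 and carries Snora24. It had 36.53, 32.175, 34.2 and 43.67 FPKM in valine samples, against 28.258, 21.941, 31.069 and 34.037 FPKM in control samples. The ranges overlapped only through control replicate 4, which exceeded the lowest valine sample. The means were 36.64 ± 5.011 in valine and 28.83 ± 5.161 FPKM in control samples (SD, n = 4 each), a log2 change of 0.34 (95% interval 0.02 to 0.67, limma adjusted p = 0.172). It did not pass after adjustment, though its unadjusted limma p was 0.0402, and over 21 settings the adjusted p lay between 0.0721 and 0.639.

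Snhg3, the host of U17-type H/ACA snoRNAs, was the least abundant of the 8. It had 3.206, 1.704, 2.132 and 2.748 FPKM in valine samples, against 2.511, 2.43, 2.252 and 2.836 FPKM in control samples. Valine samples gave both the highest and the lowest value, on 12 to 21 fragments. The log2 change was -0.04 (95% interval -0.39 to 0.31, limma adjusted p = 0.897), and its sign was not stable. It shares 135 bp of exon with Rcc1, the exchange factor of the GTPase Ran, on the same strand, and 705 bp with Gm17300 on the opposite strand, so its counts are uncertain. Rcc1 averaged 146.1 ± 13.16 in valine and 130.6 ± 4.893 FPKM in control samples (SD, n = 4 each, limma adjusted p = 0.185), far above Snhg3.

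Snhg12 carries snoRNAs of both classes and lies near Snhg3 on chromosome 4, at 132308623 to 132311024. It had 3.447, 2.215, 2.079 and 3.158 FPKM in valine samples, against 3.092, 2.805, 2.527 and 1.885 FPKM in control samples. Values of both groups ran over nearly the same range. The log2 change was 0.05 (95% interval -0.33 to 0.44, limma adjusted p = 0.884), and scaling to equal totals turned its sign, to -0.03.

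**Figure D2:**
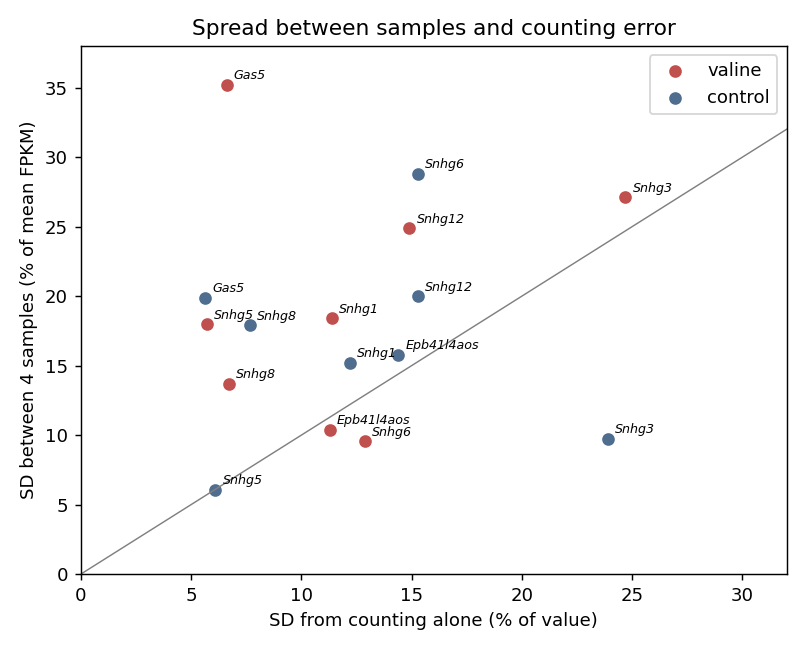
SD between the 4 samples of a group (vertical axis, percent of the mean FPKM) against the SD that counting fragments alone would give (horizontal axis, percent), for each host in valine and control samples. The line marks equal values. Gas5 in valine samples lies farthest above it, at 35.2% against 6.62%, while Epb41l4aos lies near the line in both groups.

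The deposited table has rows for snoRNAs themselves, but they carry little signal from these hosts. GENCODE vM21 places 30 snoRNA genes inside the 8 hosts, under 28 names, of which 26 genes have a row and 2 were above 0 in any sample. Snord87, inside Snhg6, is shown because it was the one hosted snoRNA with fragments in more than 1 sample, and Snora24 because its host is the most abundant. Capitals mark the box C and box D motifs of Snord87 (TGATGA and CTGA) and the ACA that ends 3 bases before the end of Snora24. Both sequences are from GENCODE vM21, build GRCm38.
Snord87, chr1:9942463-9942549, minus strand: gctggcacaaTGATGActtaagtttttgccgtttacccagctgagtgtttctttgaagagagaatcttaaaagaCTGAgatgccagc
Snora24, chr3:123507937-123508066, minus strand: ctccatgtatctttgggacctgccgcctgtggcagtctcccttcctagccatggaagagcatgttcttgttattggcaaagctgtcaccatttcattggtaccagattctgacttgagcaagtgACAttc
Snord87 had 0, 1.61, 3.021 and 3.114 FPKM in valine samples, on 0, 1, 2 and 2 fragments, against 1.498, 0, 0 and 0 FPKM in control samples, on 1, 0, 0 and 0 fragments. With so few fragments no difference was detectable at this depth (limma adjusted p = 0.245). The snoRNA Gm23639, inside Epb41l4aos, had 2 fragments in control replicate 4 and was at 0 in the other 7 samples. Of all 1099 snoRNA rows of the deposited data, 357 were above 0 in any sample. Of the 30 hosted snoRNA genes, 26 lie within an annotated exon of their host, so a fragment there can belong to an unspliced host or to the snoRNA. Every row inside an exon was at 0. Snord87 and Gm23639 lie outside the exons, as do Snora73a and Snora73b, which were at 0. How fragments in shared stretches were credited was not tested, so the zeros do not show that snoRNA reads were absent.

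The ribosomal protein genes, whose mRNAs begin with a 5′TOP tract, moved mostly upward. Of 79 genes, 28 rose (35.4%, against 4.32% of all tested genes), 1 fell, and 70 had a positive change, with a median log2 change of 0.22. Rps26 averaged 234.0 in valine and 164.5 FPKM in control samples (log2 change 0.51, limma adjusted p = 0.0336). Rps13 averaged 124.1 in valine and 89.38 FPKM in control samples (0.47, adjusted p = 0.018). Rps20 averaged 150.4 in valine and 109.5 FPKM in control samples (0.45, adjusted p = 0.00778). All encode proteins of the small subunit. Of the 8 fits that each left out a sample, the call of Rps20 held in 8, that of Rps13 in 6 and that of Rps26 in 1 (adjusted p up to 0.0867). Rps26 also missed the threshold with equal totals (0.0616), and Rps13 and Rps20 did not.

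Rps4x, an X-linked gene of the small subunit, went the other way. It averaged 15.06 in valine and 24.12 FPKM in control samples (log2 change -0.63, limma adjusted p = 0.0345). Ribosomal protein genes have many near-identical pseudogene copies, so their single values are uncertain. With equal totals 13 rose and 2 fell, with a median of 0.10. The count of those that rose was 10 without valine replicate 1, 11 without control replicate 1, 15 without control replicate 2 or valine replicate 4, and 18 without control replicate 3 or valine replicate 2. The fall of Rps4x was lost in 7 of the 8 fits that left out a sample, with an adjusted p of up to 0.0935.

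Set against the ribosomal proteins, the hosts spread on both sides of them. When each sample was expressed relative to its own ribosomal protein median, Epb41l4aos stayed above it by 0.41 on the log2 scale (95% interval 0.05 to 0.77, limma adjusted p = 0.0897), which did not pass. Snhg6 was at 0.12 and Snhg8 at 0.09. The other 5 hosts were negative, with Snhg5 at -0.07, Snhg1 at -0.12, Snhg12 at -0.20, Snhg3 at -0.29 and Gas5 at -0.55 (95% interval -1.18 to 0.07). None of the 8 was called in either direction, while 0.294% of all tested genes were called higher, 23.1% lower and 23.4% in either direction. This scale shifts the median change of all genes by -0.25. At an interval as wide as that of Gas5, these values do not show that any host moved with the ribosomal proteins or apart from them.

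**Figure D3:**
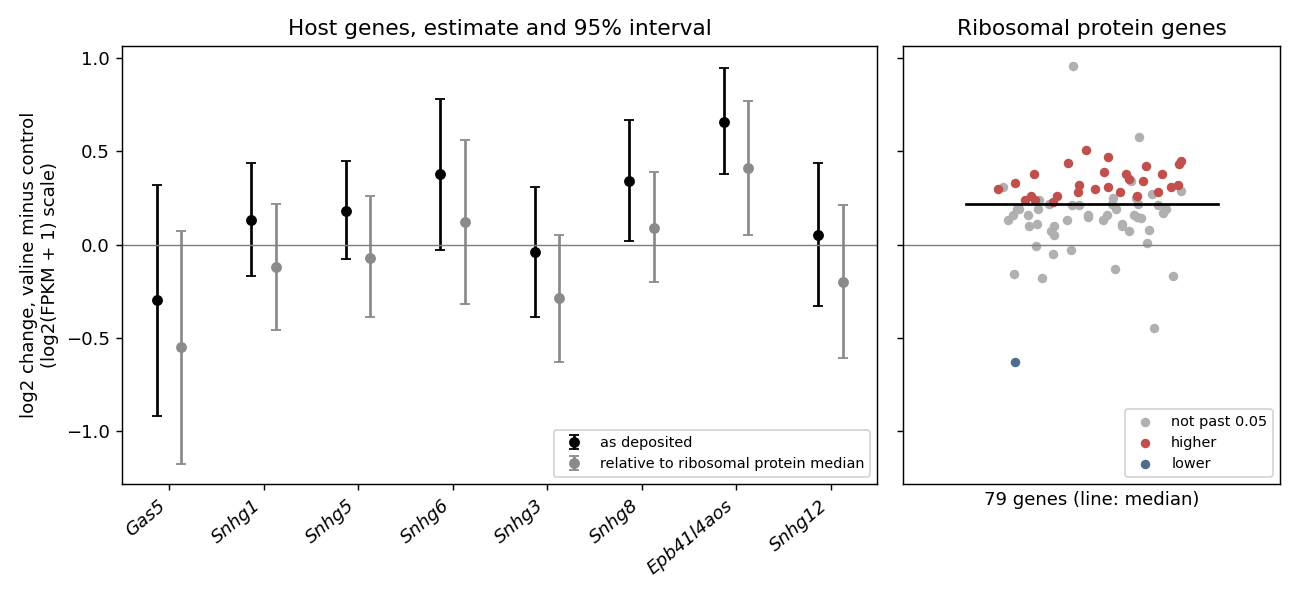
Log2 change, valine minus control, on the log2(FPKM + 1) scale, of each host (left, estimate and 95% interval, black as deposited, grey relative to the ribosomal protein median) and of 79 ribosomal protein genes (right, 1 point per gene, with the median at 0.22). The grey intervals of all hosts but Epb41l4aos include 0.

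Other genes of the host pathway were read from lists of 8 to 16 genes. Among other noncoding hosts, 11 of 13 names were matched and 10 tested, 1 rose, none fell and the median change was 0.06. The gene that rose was Zfas1, the host of Snord12-type snoRNAs, with 3.88, 3.83, 3.249 and 3.634 FPKM in valine samples, against 2.81, 2.363, 2.025 and 2.592 FPKM in control samples. Its groups did not overlap, and its log2 change was 0.43 (limma adjusted p = 0.046). The call ended in each of the 8 fits without a sample, where the adjusted p lay between 0.0631 and 0.116, and with equal totals at 0.0876.

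Among 11 protein-coding hosts, 1 rose, none fell, and the median change was -0.05. It was Tpt1, which encodes the translationally controlled tumour protein, at 336.6 ± 23.83 in valine and 282.4 ± 9.905 FPKM in control samples (SD, n = 4 each, log2 change 0.25, limma adjusted p = 0.0316). With equal totals its adjusted p was 0.11, and 0 of the 11 rose and 1 fell, at a median of -0.17. Quantile normalisation also gave 0 higher and 1 lower (median -0.10). Among 16 other 5′TOP genes of translation, of which Tpt1 is also one, 3 rose and none fell, with a median of 0.09. Eif3h, a subunit of initiation factor eIF3, had a log2 change of 0.30 (adjusted p = 0.0124) and Eef1d, a subunit of the elongation factor 1 complex, one of 0.24 (adjusted p = 0.0304). With equal totals 0 of these 16 rose and 1 fell, so their direction depends on that scaling. In the 8 fits without a sample, Eif3h was called in 8, Tpt1 in 2 (adjusted p up to 0.086) and Eef1d in 1 (up to 0.085).

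The proteins that bind the snoRNAs were less clear. Of 8 snoRNP proteins, 0 passed the limma test, and voom on recovered fragments called 0. At an unadjusted limma p under 0.05, 2 of the 8 were higher and 1 lower. Of all 22077 tested genes, 3039 were higher and 2612 lower at that cut. Among the limma settings, 1 was called higher with a mean of at least 5 FPKM required (1 of 7 tested) and 1 with the length trend removed. Fbl, the fibrillarin methyltransferase of C/D snoRNPs, averaged 21.43 ± 1.634 in valine and 17.62 ± 1.339 FPKM in control samples (SD, n = 4 each, limma adjusted p = 0.0711). Nop10, a core protein of H/ACA snoRNPs, averaged 129.7 ± 6.126 in valine and 112.3 ± 6.272 FPKM in control samples (SD, n = 4 each, limma adjusted p = 0.0596).

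Of 8 snoRNP assembly factors, 1 rose and none fell. It was Znhit6, a box C/D assembly factor, with a log2 change of 0.22 (limma adjusted p = 0.0393), whose call ended with equal totals, at 0.269, and in each of the 8 fits without a sample. Of 10 factors of nonsense-mediated decay, the pathway that degrades several spliced hosts, 1 rose and 2 fell, with a median of -0.11. Upf3a, a relative of the exon junction factor Upf3b, had a log2 change of 0.30 (limma adjusted p = 0.018), lost with equal totals at 0.0591. Smg5 and Smg6, which act on the phosphorylated decay factor Upf1, had changes of -0.24 (adjusted p = 0.0313) and -0.22 (adjusted p = 0.0412). Each of the 2 was called in 1 of the 8 fits without a sample. With the length trend removed both calls ended, at 0.168 for Smg5 and 0.313 for Smg6, none of the 10 fell and their median was 0.01, while with equal totals 5 of the 10 fell.

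**Figure D4:**
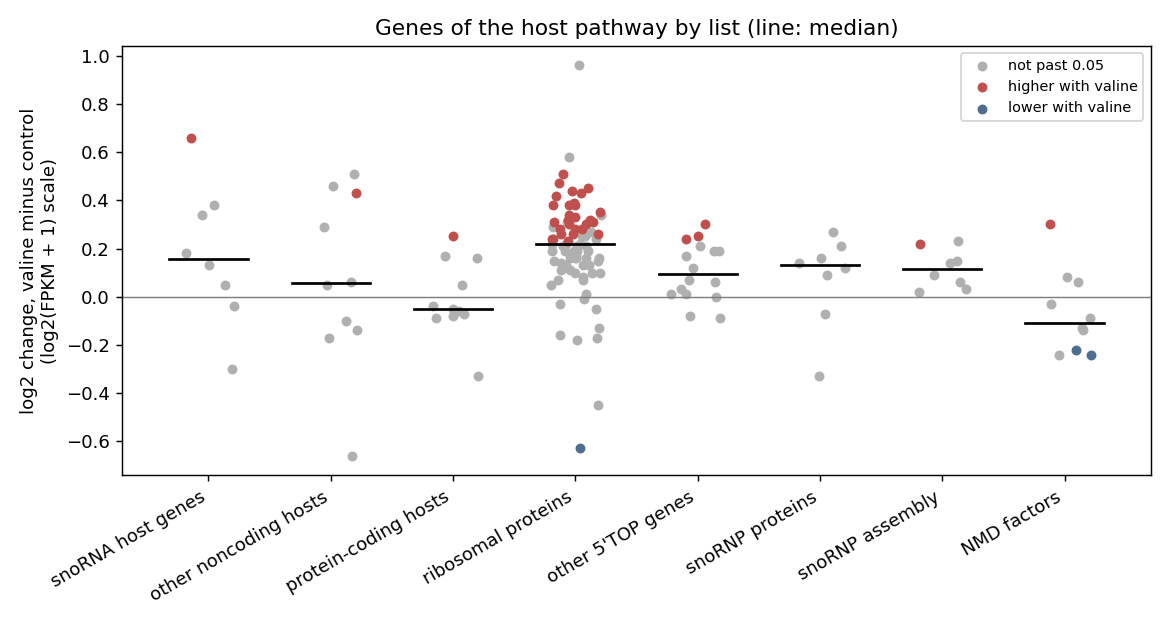
Log2 change, valine minus control, on the log2(FPKM + 1) scale, of each tested gene in 8 lists of the host pathway, with list medians as lines and genes past the limma threshold in colour. The ribosomal proteins have the highest list median, 0.22, and the decay factors the lowest, -0.11 (0.01 with the length trend removed).

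A pair of hosts start close to a protein-coding gene on the opposite strand. Gas5 starts 427 bp from Zbtb37, a zinc finger gene, and Snhg1 starts 106 bp from Slc3a2, the heavy chain of the amino acid transporters that carry leucine, isoleucine and valine. Slc3a2 had 51.358, 53.726, 46.21 and 51.127 FPKM in valine samples, against 95.109, 81.417, 89.907 and 65.024 FPKM in control samples. The groups did not overlap, and the log2 change was -0.69 (SE 0.114, limma adjusted p = 0.011), called in all 21 alternative settings. Snhg1, at the other side of the same start region, overlapped between groups.

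The log2 ratio of Snhg1 to Slc3a2 was taken as the difference of their log2(FPKM + 1) values. This ratio was -3.52, -3.28, -3.42 and -3.68 in valine samples, against -4.64, -4.30, -4.20 and -4.06 in control samples. Every valine sample was higher, and the mean ratios differed by 0.82. An exact two-sided permutation test over the 70 arrangements of the samples gave p = 0.0286, the smallest it can give. After adjustment over the 2 pairs it was 0.0571, which does not pass. With this few samples a single pair could not pass after adjustment, so the adjusted test cannot decide. Most of the difference comes from the fall of Slc3a2 given above, as the log2 change of Snhg1 was 0.13. The groups of Slc3a2 did not overlap, so the ratio test largely restates that fall. It gives no separate evidence about Snhg1 or about the pair. Gas5 and Zbtb37 gave a difference of -0.25 in the same ratio (exact permutation p = 0.686), and Zbtb37 averaged 1.903 ± 0.3435 in valine and 2.004 ± 0.3005 FPKM in control samples (SD, n = 4 each).

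**Figure D5:**
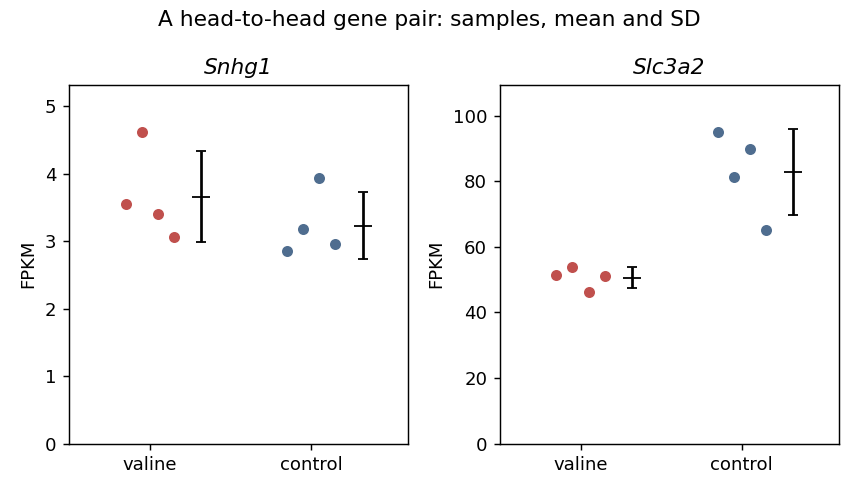
FPKM of Snhg1 and of its opposite-strand neighbour Slc3a2 in 4 valine samples (left of each panel) and 4 control samples (right), with the group mean and SD in black. Slc3a2 lies between 46.21 and 53.726 FPKM in valine and between 65.024 and 95.109 FPKM in control samples, while Snhg1 overlaps.

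Markers of the cells of the testis moved along with these groups. The summed level of 7 Leydig cell markers was 460.7 to 750.8 FPKM in valine and 1580.4 to 2243.1 FPKM in control samples, and 7 of 7 fell. For stroma, macrophages and endothelium, 7 of 9 tested markers fell, with sums over 10 markers of 62.3 to 72.4 FPKM in valine and 139.4 to 175.2 FPKM in control samples. Of 9 spermatid markers 6 rose, with sums of 56153.6 to 68232.1 FPKM in valine and 44077.1 to 46393.7 FPKM in control samples. The spermatid count was 5 with equal totals, 2 with no filter on low values, 1 with the length trend removed and 0 with quantile normalisation, where the median change was 0.06 in place of 0.29. Of 9 spermatocyte markers 2 rose (0 in each of those 4 settings, and 1 fell with equal totals or quantile normalisation), with sums of 6719.8 to 7416.0 in valine and 5946.9 to 6269.6 FPKM in control samples, and of 8 spermatogonium markers 2 fell, with sums of 108.8 to 125.4 in valine and 96.0 to 116.1 FPKM in control samples. Of 8 Sertoli cell markers none passed the limma test (1 higher and 0 lower at an unadjusted p under 0.05), with sums of 548.2 to 593.2 in valine and 548.0 to 639.9 FPKM in control samples. No listed marker was at 0 in all 8 samples. The sum of each list was above 0 in every sample, so germ and somatic markers were both measured in both groups. In whole tissue, fewer cells of a type and less RNA per cell cannot be told apart. The part of cell composition in the changes of Epb41l4aos, Slc3a2 and the ribosomal proteins was not tested.

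The mean profile of the 8 hosts over the samples was set beside 7439 other genes averaging 10 FPKM or more. The most similar, by Pearson r over 8 samples, were Tuba1a (0.958), an alpha-tubulin, Ube2v2 (0.944), a ubiquitin-conjugating enzyme variant, Fabp12 (0.941), a fatty acid binding protein, Nck2 (0.940), an adaptor protein, and Ppp4r1l-ps (0.935), a pseudogene. These are the highest of 7439 values, over samples that share 2 groups, and are given as a description. In that profile, 5 to 7 of 8 hosts were above their own mean in valine samples, against 2 or 3 of 8 in control samples. This split largely restates that the change was positive in 6 of 8 hosts, or 5 with equal totals. Over all 22077 tested genes 11835 had a positive change, and the count per sample was not made for them.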

How the data were processed

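Total RNA of mouse testis was made into Illumina TruSeq libraries, per the labels' protocols. Reads were aligned with HISAT2 to GRCm39, per the submitters' processing notes. No source used here gives the quantifier, strand setting or annotation release. FPKM values were deposited by the authors as 1 table, and 0 of its per-sample columns were left unused. The column heading VA was read as valine.

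Symbols came from GENCODE vM21 and RefSeq GRCm38.p6 tables, by Ensembl identifier (52081 of 55414 genes). Positions are of GRCm38, not of the authors' build. The 22077 genes averaging 1 FPKM or more were tested on log2(FPKM + 1) with limma 3.58.1 in R 4.3.3, two-sided, with a mean-variance trend. The procedure was tested on simulated data.

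Whole fragments were recovered from the FPKM values with vM21 exon lengths, which gave 50491 genes. Counting errors cover counting only.

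Genes named were all hosts, up to 4 genes past the threshold per list by size of change or, where none passed, the 2 with the smallest p, neighbours with starts within 2000 bp, and the 5 most similar genes. Overlapping genes were added for the counting. The members and lists were chosen with earlier results of these data known. Same-numbered samples were not paired. Alternatives covered the pseudocount, filters, scalings, model options, length, the replicate block and leaving out each sample. The fit on recovered fragments with voom was chosen after seeing the data. The permutation test on the ratio of host to neighbour was not among the planned tests.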

Additional observations from a re-analysis of the deposited data

Results flagged for a closer look

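Snhg10, another noncoding host, had 12.236, 13.235, 8.694 and 9.474 FPKM in valine samples, against 4.433, 8.491, 8.956 and 9.315 FPKM in control samples. Control replicate 1, at 4.433 FPKM, stood apart from the other 3 control samples by more than Dixon's 95% criterion for 4 samples. It was 1 such value among 42 groups of 4 examined, where chance gives about 1 in 20. Snord87, a snoRNA row outside the main measurement, reached 3.114 FPKM in valine replicate 4, on 2 fragments, against 1 fragment in control replicate 1 and none in the other control samples. No difference can be read from these counts.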

How the results depend on the processing

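The count of hosts called higher was 1 in every setting run except relative to the ribosomal protein median, where it was 0 (Epb41l4aos, 0.41), and none was called lower in any. The sign of uncalled hosts turned relative to the ribosomal protein median for Snhg1 (-0.12), Snhg5 (-0.07) and Snhg12 (-0.20), and with equal totals for Snhg12 (-0.03). Leaving out 1 sample gave -0.14 to 0.07 for Snhg3 and -0.05 to 0.14 for Snhg12. Their intervals include 0 throughout the main results.

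Ribosomal protein genes called higher (28) numbered 17 with no expression filter, 13 with equal totals, 11 with quantile normalisation, 1 relative to their own median, 14 with no mean-variance trend, 13 with the length trend removed and 10 to 24 without 1 sample. Those called lower (1) numbered 0 with no filter, 2 with equal totals, 4 relative to their median, 0 with no trend and 0 to 1 without 1 sample. Over all genes, 954 were higher and 974 lower. The split was 363 higher and 2022 lower with equal totals, and 65 higher and 5094 lower relative to the ribosomal protein median. Higher calls numbered 398 with quantile normalisation, 568 with no filter, 503 with no trend and 381 to 795 without 1 sample, where lower calls numbered 461 to 802. The cause of these moves was not tested.

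Same-numbered samples did not deviate together (correlations -0.017, -0.04, 0.104 and 0.111). With the replicate block 581 genes were higher and 489 lower, and 18 ribosomal protein genes were higher and 0 lower. Depth limits Snhg3, Snhg12 and Snhg6 most.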
